A study of Mus musculus with 4 samples.

Results

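The Olfr1226 neurons are the mature olfactory sensory neurons (OSNs) of the mouse whose single identified odorant receptor is Olfr1226. They were the cells to which the deposited cell table gives Olfr1226 as receptor identity, 79 of the 9791 OSNs with an identity and of 960 such receptor populations. Cells were dissociated from the main olfactory epithelium of 4 male C57BL/6 mice aged 8 weeks that received no odorant, the state that the study calls rest, and live nucleated cells were sorted before droplet-based RNA-seq of the 3′ ends of transcripts. The 4 mice form 1 group with no treatment and no genetic change, each mouse is 1 library, and the mouse was the replicate (n = 4). The comparison asked which genes other than the receptor distinguish these neurons from the other neurons of the cluster that holds most of them, named Ventral in the cell table.

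In the main olfactory epithelium a mature OSN expresses 1 gene out of a very large family of G protein-coupled receptors for odorants. The axons of neurons that share a receptor meet in the same few glomeruli of the olfactory bulb. Binding of an odorant activates the G protein subunit encoded by Gnal, the adenylyl cyclase Adcy3 and the cyclic nucleotide-gated channel of the cilia, and calcium entry then opens the chloride channel Ano2. Calb2 encodes calretinin and S100a5 another small protein that binds calcium. S100a5 and Pcp4l1, which encodes a small protein related to the Purkinje cell protein Pcp4, are among the genes whose level differs widely between OSN populations, and the level of S100a5 is known to follow odorant-driven activity. Gm31557 is annotated as a long non-coding RNA with no known role. The position of an OSN across the epithelium goes with the receptor it expresses, with Nqo1 and Acsm4 marking the dorsal zone and the nuclear factor I gene Nfix the ventral one.

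The Olfr1226 gene lies on the minus strand of chromosome 2, from 89188839 to 89200048 on GRCm38, among other receptor genes. Its coding sequence of 933 bases, from 89193100 to 89194032, is a single uninterrupted stretch in the annotation used. The receptor itself chose the neurons, so a short stretch of it is given here that can be set beside other receptors base by base. It covers 69 coding bases around the codons for Asp-Arg-Tyr, a motif at the inner end of the third membrane-spanning helix. The capitals mark the codons for Asp-Arg-Tyr, and the sequences are from the GENCODE M21 annotation on GRCm38, read 5′ to 3′ along the minus strand. They are shown for Olfr1226, for the neighbouring receptors Olfr1228, Olfr1222 and Olfr1239 that are compared with it further on, and for Olfr1507 of chromosome 14, whose neurons ranked among the most similar.
Olfr1226, chr2:89193637-89193705: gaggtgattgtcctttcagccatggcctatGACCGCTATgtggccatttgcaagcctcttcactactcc
Olfr1228, chr2:89249261-89249329: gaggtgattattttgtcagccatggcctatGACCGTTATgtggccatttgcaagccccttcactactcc
Olfr1222, chr2:89125334-89125402: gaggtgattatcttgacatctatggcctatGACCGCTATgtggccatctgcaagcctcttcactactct
Olfr1239, chr2:89418019-89418087: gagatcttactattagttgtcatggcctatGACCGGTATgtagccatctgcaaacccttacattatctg
Olfr1507, chr14:52490555-52490623: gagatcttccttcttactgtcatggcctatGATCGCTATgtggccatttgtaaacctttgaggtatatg

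Over this window Olfr1228 differed from Olfr1226 at 6 of 69 bases, Olfr1222 at 8, Olfr1507 at 21 and Olfr1239 at 24. Over the whole coding sequence, the closest of the other 1176 receptor genes with a complete coding sequence were Olfr1225 (89% identity), Olfr1228 (87.04%), Olfr1219 (86.75%), Olfr1217 (85.04%), Olfr1222 (83.55%) and Olfr1223 (83.23%), all on chromosome 2. The median over all of them was 55.09%. Olfr1239, though its gene lies nearby, had 61.55% and Olfr1507 59.38%. Within 100 kb of Olfr1226 the annotation holds 16 other genes or pseudogenes, most of them receptor genes, and in the Olfr1226 neurons only Olfr1225 and the pseudogene Gm13761 had any UMI, 1 each.

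The neurons numbered 19, 28, 7 and 25 in mice 1 to 4. These were 0.706%, 1.196%, 0.398% and 0.833% of the OSNs with an identity in each mouse, a mean of 0.783% ± 0.33 (SD, n = 4). By the total over mice the population shared the second place with Olfr1348, also with 79 neurons, and by mouse it ranked 5, 1, 32 and 3. The 95% Wilson intervals of mouse 2 (0.828% to 1.72%) and mouse 3 (0.193% to 0.819%) did not overlap, and they cover counting error only. With 7 neurons, mouse 3 gave the least certain values, and results that turn on it are given with its value. The libraries held 23157467 to 32382702 UMIs (unique molecular identifiers, which count each captured transcript once) over 4746 to 6003 barcodes, and the summed Olfr1226 neurons of mice 1 to 4 held 125673, 136392, 63528 and 122136. The other Ventral OSNs held 6596656, 4848747, 4856824 and 6188585. Of all barcodes, 54 were found in more than 1 library, and 0 of them belonged to an Olfr1226 neuron.

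The receptor transcript was abundant. The median neuron held 133, 82, 138 and 105 Olfr1226 UMIs in mice 1 to 4, with extremes of 8 in mouse 2 and 280 in mouse 3. Per 10000 UMIs of the summed neurons these were 196, 185, 171 and 190, a mean of 185 ± 10.4 (SD, n = 4), while the other Ventral OSNs held 90.8, 96.1, 94.2 and 96.4 of their own receptors. Every mouse's Olfr1226 value was thus far above that of its other Ventral OSNs. Of the 42 populations that had 5 or more neurons in every mouse, Olfr1226 ranked the third by its receptor, after Olfr586 (230 ± 20.8) and Olfr672 (228 ± 25.2), and its range over mice did not reach that of either. Receptors have 3′ ends of different length and annotation, so these levels are compared as deposited and not per length.

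Since the receptor UMIs chose the members, their values at the edge are given as a description. The weakest member held 8 Olfr1226 UMIs of 1804, or 44.3 per 10000. Just outside were 4 mature OSNs with 53.8 to 137 Olfr1226 UMIs per 10000 that had been set aside because another receptor also passed the threshold, and the next non-member held 1 UMI, 3.15 per 10000. In all, 23 of the other 10440 mature OSNs had an Olfr1226 UMI. A further receptor was detected with 1 or more UMIs in 34 of the 79 neurons (43.0%), against 31.5% of the other Ventral OSNs, never with more than 6 UMIs. The most frequent was the pseudogene Olfr1372-ps1, with 17 UMIs in 14 of the neurons (17.7%, against 10.3% of the other Ventral OSNs and 0.170% of the microvillar cells named Mv2). Without it the shares were 26.6% and 23.8%.

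The cell table gives each mature OSN to a cluster made once with and once without the receptor genes. Without them, 76 of the 79 neurons (96.2%) were in Ventral, which held all the neurons of mice 2 and 3, and the other 3 (2 from mouse 1 and 1 from mouse 4) in Calb2+ V., a ventral cluster named for Calb2. With the receptor genes, 46 (58.2%) were in Ventral, 32 (40.5%) in Calb2+ V. and 1, from mouse 2, in Dlg2+ V. The change thus moved 29 neurons from Ventral to Calb2+ V. By mouse, 13 of 19, 7 of 28, 4 of 7 and 8 of 25 were in Calb2+ V. when receptor genes were used. The Ventral cluster was made from the genes compared here and lacks most Calb2-high ventral OSNs, so the genes were also compared with all other OSNs with an identity, which uses no cluster.

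Olfr1226 neurons were the deeper cells. Their median UMI counts were 6797, 4861.5, 9193 and 5075 in mice 1 to 4, and those of the other Ventral OSNs 5541, 4275, 6611 and 3999. The difference was positive in 4 of 4 mice, with a mean of 1375 ± 853 UMIs (SD, n = 4), and the exact two-sided sign-flip permutation test gave p = 0.125, the smallest that 4 mice allow. Detected genes differed likewise (387 ± 223 more, 4 of 4 mice, exact permutation p = 0.125). The median percent of mitochondrial UMIs was lower in 4 of 4 mice, with differences of -0.0301 to -0.459 percentage points (exact permutation p = 0.125). Omp, the marker of mature OSNs, was at 67.5, 87.0, 77.4 and 79 UMIs per 10000 against 75, 82.6, 75.9 and 80.7, so the groups overlapped. Of 45 marker genes of other cell types, 30 were at 0 UMIs in Olfr1226 neurons, among them the defining genes Krt5, Trp63, Cftr, Trpm5, Ptprc and Tyrobp. Their summed level was 1.19 to 3.30 per 10000, against 1.33 to 2.38 in the other Ventral OSNs and 34.2 to 43.4 in Mv2 cells.

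Summed per mouse, Olfr1226 neurons had more Calb2 than the other Ventral OSNs and less S100a5, Pcp4l1 and Cartpt. Of 10280 genes tested on UMI sums per mouse, 142 were called (1.38%), 48 higher (0.467%) and 94 lower (0.914%) than in the other Ventral OSNs, at an adjusted p of 0.05 in edgeR's quasi-likelihood test with the mouse as a block. The median log2 change over all genes was -0.10, and with RLE in place of TMM scaling it was -0.02 and the calls were 64 higher and 61 lower, so small decreases are to be read against that shift. Leaving out any 1 mouse left 31 to 37 higher and 51 to 60 lower, the fewest without mouse 4. Of the 142 genes, 134 changed the same way in 4 of 4 mice and the levels of 114 did not overlap between the groups, while 10.1% of all genes tested did not overlap. Against all 9712 other OSNs with an identity, 256 of 11366 genes were called (2.25%), 75 higher (0.66%) and 181 lower (1.59%). There RLE scaling gave 111 higher and 99 lower, and moved the median of all genes from -0.15 to -0.04. Without mouse 1, 2 or 4 the calls were 49 higher and 101 lower, 45 and 110, and 44 and 108. Of the 142 genes, 45 were called higher and 82 lower in both comparisons, which share the Olfr1226 neurons and the other Ventral OSNs. Of the named genes, Dnaic2 (log2 change 2.98), Dap (1.24), Tmem159 (1.33), Gm16196 (1.2) and Adam28 (1.11) were higher there too, and S100a5 (-2.16), Pcp4l1 (-2.35), Tenm2 (-3.40), Olig1 (-2.89), Ptn (-1.84) and Stmn1 (-1.44) lower, each in 4 of 4 mice. Kirrel3 was called there (1.57) but higher in 3 of 4 mice, and Pcdh10 (-0.77, adjusted p = 0.14) and Bcl11b (-0.90, adjusted p = 0.057) were not called.

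**Figure D1:**
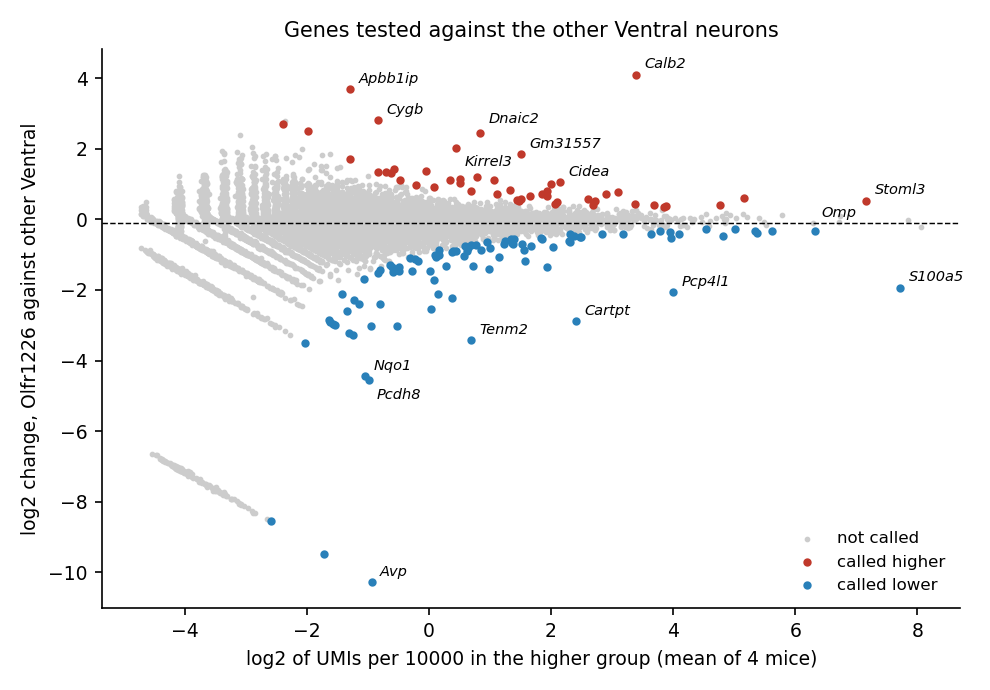
Log2 change of each of the 10280 tested genes in Olfr1226 neurons against the other Ventral OSNs (vertical axis) by the log2 of its UMIs per 10000 in the group with the higher mean over 4 mice (horizontal axis). Red points are the 48 genes called higher, blue points the 94 called lower, grey points the rest, and the dashed line is the median of all genes, -0.10. Calb2 has the largest change among the abundant genes, and S100a5 is the most abundant gene called lower. The 3 blue points at the bottom have 0 UMIs in Olfr1226 neurons, so their position depends on the prior count.

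Calb2, on chromosome 8 from 110137502 to 110168210, had 14.6, 9.46, 9.76 and 8.02 UMIs per 10000 in the Olfr1226 neurons of mice 1 to 4. In the other Ventral OSNs it had 0.555, 0.577, 0.630 and 0.569. The groups lay far apart in every mouse, a log2 change of 4.10 (SE 0.12, adjusted p = 9.7e-268). Against all other OSNs, whose mean of 3.53 ± 0.354 includes the Calb2 clusters, it was still higher in 4 of 4 mice, by 1.43 (SE 0.09) on the log2 scale. The other OSNs of Calb2+ V. held more, 26.2 ± 2.46. Calb2 was one of the 2 genes proposed as markers with these data in view, and its height here is no independent support for that choice.

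Gm31557, the other proposed marker, is transcribed from the plus strand of chromosome 9 (46666273 to 46674844). Its levels were 4.06, 1.76, 2.83 and 2.70 UMIs per 10000, against 0.881, 0.658, 0.535 and 0.819 in the other Ventral OSNs. Again no mouse's values overlapped, and the log2 change was 1.86 (SE 0.18, adjusted p = 6.8e-23), with 1.83 (SE 0.17) against all other OSNs. It did not run with Calb2, since the other OSNs of Calb2+ V. held 0.236 on average.

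**Figure D2:**
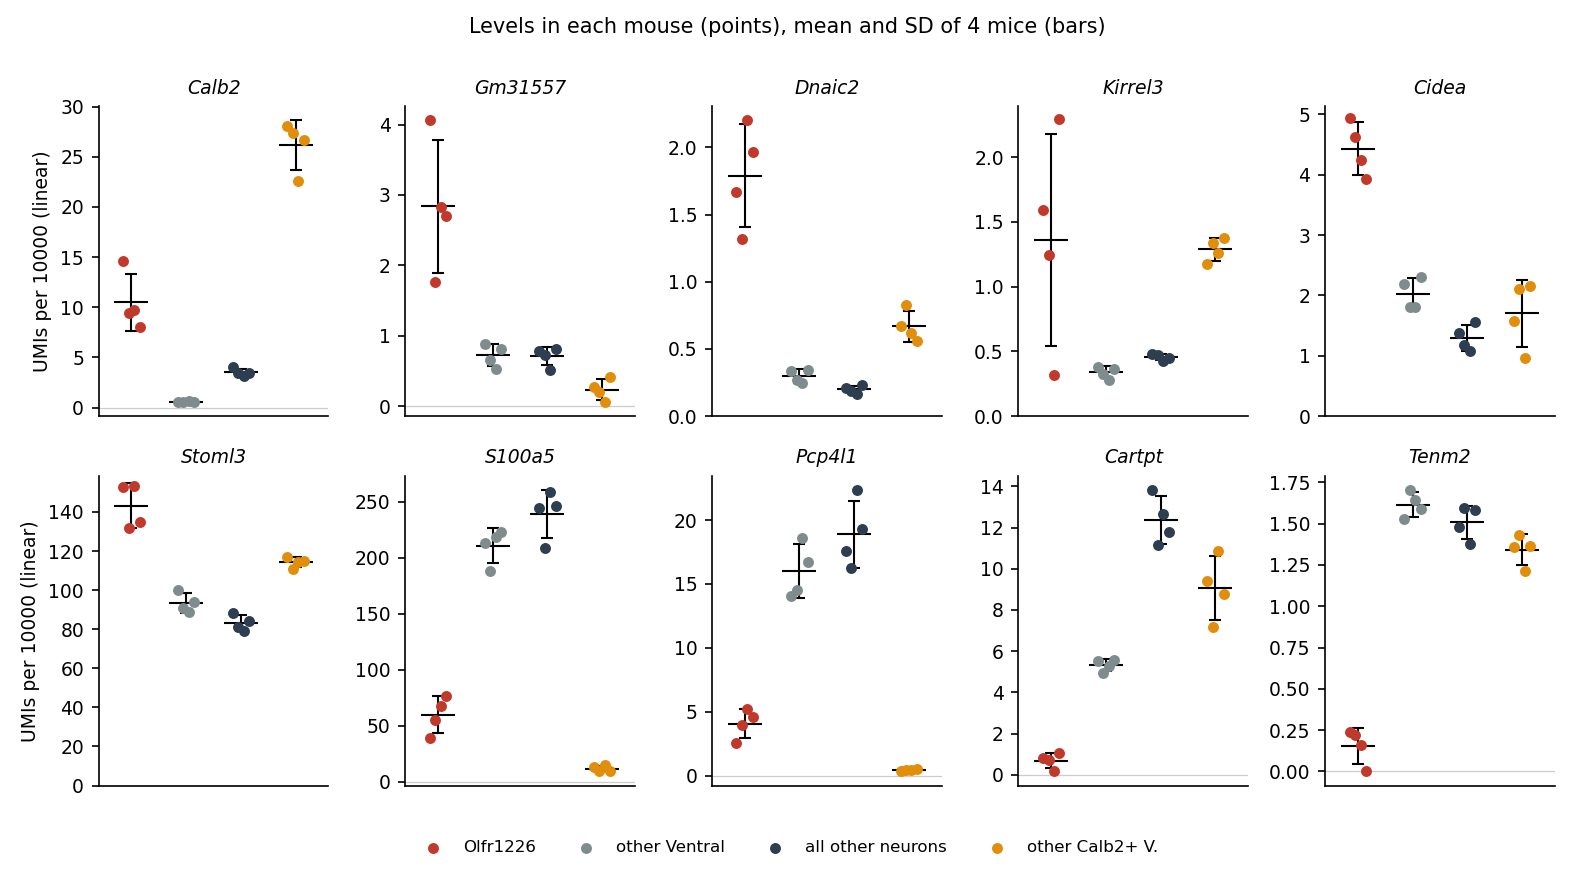
UMIs per 10000 of 10 genes (vertical axes, linear) in each mouse, for Olfr1226 neurons (red), the other Ventral OSNs (grey), all other OSNs with an identity (dark blue) and the other OSNs of Calb2+ V. (orange). Points are mice, and the bars are the mean and SD of 4 mice. Calb2 lies between Ventral and Calb2+ V., S100a5 and Pcp4l1 lie between them from the other side, and Cartpt and Tenm2 are lowest in Olfr1226 neurons among the 4 groups drawn.

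By size of change, the other 8 increases among genes with at least 1 UMI per 10000 were Dnaic2, Kirrel3, Scgn, Dap, Tmem159, Gm16196, Cidea and Ifi27. Dnaic2, an intermediate chain of the dynein motor of motile cilia, had 1.67, 1.32, 2.20 and 1.97 UMIs per 10000 against 0.338, 0.266, 0.243 and 0.343 (log2 change 2.45, SE 0.24, adjusted p = 1e-21). Cidea, a protein of the lipid droplet surface, had 4.93, 4.62, 4.25 and 3.93 against 2.20, 1.81, 1.80 and 2.30 (log2 change 1.06, SE 0.13, adjusted p = 4.8e-14). For both, the lowest Olfr1226 value lay above the highest Ventral one, as it did for Scgn, Dap, Tmem159 and Gm16196.

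Ifi27, an interferon-inducible gene, had 6.29, 1.91, 3.15 and 4.67 against 1.88, 1.22, 2.33 and 2.45, so the groups overlapped although each mouse's pair went the same way (log2 change 1.01, SE 0.13). Scgn, which encodes the calcium sensor secretagogin, rose by 1.19, Dap by 1.15, Tmem159 by 1.13 and the non-coding Gm16196 by 1.11 on the log2 scale. Against all other OSNs, Cidea and Ifi27 differed by more, 1.65 and 1.68, and Scgn by less, 0.97. The call of Scgn against all other OSNs was lost without mouse 2 (log2 change 0.81, adjusted p = 0.056). Apbb1ip and Cygb, at lower levels, had larger ratios. Apbb1ip had 0.557, 0.367, 0.630 and 0.0819 against 0.0197 to 0.0391, a log2 change of 3.68 (SE 0.62). Cygb, which encodes cytoglobin, had 0.239, 0.806, 0.787 and 0.409 against 0.0660 to 0.0803, a log2 change of 2.82 (SE 0.47). They rest on 17 and 24 UMIs.

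S100a5 was the most abundant gene called lower. It had 38.8, 55.1, 67.8 and 76.6 UMIs per 10000 in Olfr1226 neurons and 213, 188, 219 and 223 in the other Ventral OSNs, and it fell by 1.93 (SE 0.08, adjusted p = 1.1e-120) on the log2 scale. Pcp4l1 had 2.55, 3.96, 5.19 and 4.59 against 14.1, 14.5, 18.6 and 16.7, and fell by 2.07 (SE 0.11). For both genes the 2 groups of mice were far apart, and the other OSNs of Calb2+ V. were lower still, at 11.6 for S100a5 and 0.442 for Pcp4l1 on average.

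Cartpt, the precursor of the CART neuropeptides, had 0.796, 0.733, 0.157 and 1.06 UMIs per 10000 against 5.53, 4.93, 5.30 and 5.57 in the other Ventral OSNs. It fell by 2.88 (SE 0.18, adjusted p = 3.3e-52). Against all other OSNs, where it averaged 12.4 ± 1.16, its log2 change was -4.14 (SE 0.16). Ptn, which encodes the growth factor pleiotrophin, fell by 1.42 (SE 0.22). These were the 2 called genes, both lower, among the 9 tested of 60 genes of secreted signals (0.914% of all genes tested were called lower), whose median log2 change was -0.86 beside -0.10 over all genes. Fgf12, the most abundant of the list with no call, had a log2 change of -0.31 (adjusted p = 0.24).

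Other decreases were those of Tenm2, Olig1, Stmnd1, Nsg2, Cdkn1a and Ifit1. Olig1, a transcription factor gene, had 0.0796, 0, 0.944 and 0.0819 against 0.949, 0.990, 1.18 and 0.963, so that mouse 3 alone came close to the other Ventral OSNs (log2 change -2.54, SE 0.38). Stmnd1 had a log2 change of -2.24 (SE 0.31), Nsg2, a neuronal vesicle protein, of -2.12 (SE 0.33) and the cell cycle inhibitor Cdkn1a of -1.71 (SE 0.32), a call lost when populations were weighted equally (adjusted p = 0.06). Ifit1, an interferon-induced gene, had -1.45 (SE 0.31), and its call was lost without mouse 3 (log2 change -1.15, adjusted p = 0.088).

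Genes of signal transduction were mostly level with the other Ventral OSNs. Of 22 on the list, 17 were tested, 1 rose and 2 fell, where 1.38% of all genes tested were called, and the median log2 change was -0.07. Stoml3, a membrane protein of OSN cilia, had 153, 132, 153 and 135 UMIs per 10000 against 100, 90.8, 88.9 and 94.0. Its groups did not overlap (log2 change 0.54, SE 0.07, adjusted p = 5.1e-10), and at 143 ± 11.5 it was the most abundant gene called higher. With cells thinned to 3000 UMIs the call was lost (log2 change 0.39, adjusted p = 0.18). The chloride channel gene Ano2 had 2.47, 2.35, 2.68 and 2.78 against 3.05, 3.73, 3.80 and 3.62 (log2 change -0.53, SE 0.14, adjusted p = 0.013). The call was lost without mouse 2 (adjusted p = 0.28), mouse 3 (adjusted p = 0.084) or mouse 4 (adjusted p = 0.09). The phosphodiesterase gene Pde1c (log2 change -0.42, SE 0.12, adjusted p = 0.033) overlapped between the groups, and its call was lost without mouse 1 (adjusted p = 0.54), mouse 3 (adjusted p = 0.079) or mouse 4 (adjusted p = 0.28). Against all other OSNs neither was called. Omp had a log2 change of -0.09 (SE 0.07) and Gng13, a G protein gamma subunit, of 0.09 (SE 0.07), each with an adjusted p of 0.80.

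Of 64 genes of axon guidance and adhesion, 43 were tested, with 1 higher and 4 lower (0.467% and 0.914% of all genes tested) and a median log2 change of -0.19. Kirrel3, an adhesion protein by which OSN axons are sorted, had 1.59, 1.25, 0.315 and 2.29 UMIs per 10000 against 0.382, 0.324, 0.282 and 0.367. Mouse 3, with 2 UMIs, lay within the Ventral range and the other 3 mice lay above it (log2 change 2.03, SE 0.24, adjusted p = 6.7e-14). Its paralog Kirrel2 was not called (log2 change 0.11, SE 0.09). The teneurin gene Tenm2 had 0.239, 0.220, 0.157 and 0 against 1.53, 1.70, 1.65 and 1.59 (log2 change -3.43, SE 0.35, adjusted p = 2.5e-19).

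Tenm4 had 0 UMIs in all Olfr1226 neurons against 677 in the other Ventral OSNs, at least 4.49-fold lower at a floor of 3 UMIs over the group. The protocadherin gene Pcdh8 had 1 UMI against 1129, a ratio of 22.5 with a 95% counting interval of 4.03 to 888. Pcdh10 had 0.398, 0.367, 0.787 and 0.901 against 1.02, 0.889, 1.00 and 1.54 (log2 change -1.01, SE 0.27), lower in 4 of 4 mice with overlapping groups, and its call was lost without mouse 1 (adjusted p = 0.19), mouse 2 (adjusted p = 0.13) or mouse 4 (adjusted p = 0.097). Ncam1 and Epha5, the other abundant members, had log2 changes of -0.17 and -0.02 and no call.

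Among the 25 genes of calcium binding, 12 were tested and the called ones were Calb2, S100a5 and Pcp4l1, 1 higher and 2 lower (0.467% and 0.914% of all genes tested). The list was chosen with earlier results of these data known and holds the proposed marker Calb2, so this count is a description. Cib1 (0.11), Vsnl1 (-0.46) and Hpcal1 (-0.33) had log2 changes with adjusted p from 0.45 to 0.94. S100a5 was also the only call among 19 tested genes of the 30 related to activity, where 0.914% of all genes tested were called lower, and the median of the list was -0.26. Jund, Pde4a and Kirrel2 of that list had log2 changes of -0.06, -0.23 and 0.11 and no call.

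Among the 14 markers of zones and clusters all were tested, 3 were called higher (Calb2, Cidea and Adam28) and 5 lower (Nqo1, Cd55, Dlg2, Tppp3 and Ptn), where 0.467% and 0.914% of all genes tested were. They had been drawn from earlier results of these data. The dorsal marker Nqo1 had 1 UMI in the 79 neurons, in mouse 3, against 0.404 to 0.583 per 10000 in the other Ventral OSNs and 5.28 to 8.59 in all other OSNs. Against the latter it was 325-fold lower with a counting interval of 58.3 to 12832, and Acsm4, also with 1 UMI, 72.3-fold lower (13.0 to 2856). Nfix had 5.97, 6.16, 7.56 and 6.22 against 4.85, 5.87, 5.61 and 5.67, no overlap but no call against Ventral (log2 change 0.14, adjusted p = 0.77). Against all other OSNs, Nfix (0.59), Nfib (0.95) and Nfia (1.33) rose, the last with its call lost without mouse 4 (log2 change 1.17, adjusted p = 0.07). The study named ventral and dorsal clusters by such markers, so these values describe the cluster and are no independent check of its label.

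Cd55, a cluster marker, had 4 UMIs in all and a log2 change of -3.03 (SE 0.50). Tppp3 had 3 UMIs, 7.77-fold lower with a counting interval of 2.66 to 37.7. Dlg2 had 0.398, 1.98, 0.315 and 0.983 against 1.70, 1.54, 1.84 and 2.11, with mouse 2 above its Ventral OSNs (log2 change -0.87, SE 0.20). Its call was lost without mouse 1 (adjusted p = 0.30), mouse 3 (adjusted p = 0.31) or mouse 4 (adjusted p = 0.13). The metalloprotease-family gene Adam28 had 2.31, 1.54, 3.62 and 2.54 against 1.28, 1.2, 1.31 and 1.25 and rose by 0.83 (SE 0.17).

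Of 94 transcription factor genes, 55 were tested, 0 were called higher and 3 lower (0.467% and 0.914% of all genes tested), and each of the 3 lost its call without some of the mice. Atf5, the transcription factor of the stress response to receptor expression, had 29.7, 29.7, 23.3 and 29.4 against 32.3, 33.1, 32.3 and 31.7 (log2 change -0.27, SE 0.08, adjusted p = 0.042), and its call was lost without mouse 1 (adjusted p = 0.057), mouse 2 (adjusted p = 0.23), mouse 3 (adjusted p = 0.38) or mouse 4 (adjusted p = 0.27). Bcl11b (log2 change -1.06) lost its call without mouse 1 (adjusted p = 0.27), mouse 3 (adjusted p = 0.051) or mouse 4 (adjusted p = 0.11), and Peg3 (-1.30) without mouse 1 (adjusted p = 0.28), mouse 2 (adjusted p = 0.23) or mouse 4 (adjusted p = 0.33). Ebf1 and Ebf2 had log2 changes of -0.28 and -0.03 and no call. Atf5 was also the single call among 19 tested genes of receptor trafficking and feedback (0.914% of all genes tested were called lower), where Ric8b, a helper of the olfactory G protein, had a log2 change of -0.29 (adjusted p = 0.14).

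None of the 26 tested genes of presynaptic function and neuromodulator receptors, of the 30 tested voltage-gated and potassium channel genes and of the 8 tested markers of other cell types was called in edgeR's test, where 1.38% of all genes tested were, so that a count of 0 in lists of this length is near the background. The lists had medians of -0.24, -0.21 and 0.02. Over all genes 949 had an unadjusted p under 0.05, and DESeq2 called 54 in all against 142. Of 17 tested genes of immature neurons, 2 were called lower, beside 0.914% of all genes tested. Stmn1 had 0.477, 0.733, 0.315 and 0.409 UMIs per 10000 against 1.3, 1.2, 1.16 and 1.2 (log2 change -1.32, SE 0.27), and Trib3 had 2 UMIs, a ratio of 7.12 with a counting interval of 1.97 to 58.8, its call lost without mouse 2 (adjusted p = 0.23), mouse 3 (adjusted p = 0.19) or mouse 4 (adjusted p = 0.16). Gap43 and Gng8, the defining immature genes, had 5 UMIs each. Gap43 averaged 0.101 UMIs per 10000 against 0.147 in the other Ventral OSNs, with no call. Gng8, which was not tested, averaged 0.1195 against 0.0231. In the list of stress and RNA quality, 3 of 19 tested genes were called lower, mt-Co1 (log2 change -0.50), mt-Nd4 (-0.42) and mt-Cytb (-0.31), with overlapping groups, the latter pair in 3 of 4 mice. The calls were lost without mouse 4 for mt-Co1 (adjusted p = 0.08) and without mouse 3 for mt-Nd4 (adjusted p = 0.073) and mt-Cytb (adjusted p = 0.52). All mitochondrial genes together took 89.3 to 157 UMIs per 10000 in Olfr1226 neurons and 124 to 168 in the other Ventral OSNs, and its part in the other differences was not tested. With cells thinned to 3000 UMIs, the calls were 16 higher and 34 lower, and 26 of the 42 named calls with a value there remained.

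Against the 539 other OSNs of Calb2+ V., the second most frequent cluster, the same neurons were on the other side of several genes. As a description, the log2 change of Calb2 was -1.30, and those of S100a5, Pcp4l1 and Epha5 were 2.39, 3.20 and 2.02. Kirrel3 (0.23, adjusted p = 0.81) and Scgn (0.15, adjusted p = 0.86) were not called there in edgeR's test. Cartpt averaged 9.07 ± 1.53 in Calb2+ V. and 0.688 ± 0.382 in Olfr1226 neurons.

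The populations nearest to Olfr1226 on its chromosome with at least 3 neurons in each mouse were those of Olfr1228, Olfr1222 and Olfr1239, whose genes start 54014, 66994 and 220359 bases away. They had 26, 44 and 24 neurons, with as few as 4, 6 and 3 in a mouse, and all 3 were in Ventral. One fit over the 4 populations tested 1066 genes. Against Olfr1228 it called 29 (2.72%), 7 higher (0.657%) and 22 lower (2.06%) in Olfr1226 neurons, and 7.22% of all genes did not overlap between the mice. Without the filter on low counts the balance turned around, with 28 higher and 4 lower. Of 10 tested genes of stress and RNA quality, 2 were called lower against Olfr1228, mt-Cytb and mt-Nd4. Both calls were lost without mouse 1 (adjusted p = 0.081 and 0.15) or mouse 2 (adjusted p = 0.14 and 0.29), and mt-Cytb also without mouse 3 (adjusted p = 0.24). Of that list, 0 were called against Olfr1222, and 1 higher and 1 lower against Olfr1239. Against Olfr1222 the fit called 87 (8.16%), 49 higher (4.6%) and 38 lower (3.56%), with 12.7% not overlapping. Against Olfr1239 it called 31 (2.91%), 18 higher (1.69%) and 13 lower (1.22%), with 7.79% not overlapping. Leaving out mouse 1, 2, 3 or 4 left 15, 13, 14 and 21 calls against Olfr1228, 55, 52, 91 and 65 against Olfr1222, and 17, 25, 21 and 12 against Olfr1239. The 3 comparisons share the Olfr1226 neurons, so their overlap is not a result.

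Calb2 was high in Olfr1226 neurons alone among the 4 populations. Olfr1228 neurons had 0.381, 1.92, 2.12 and 3.06 UMIs per 10000 in mice 1 to 4, with no overlap and a log2 change of 2.28 (SE 0.27, adjusted p = 3.2e-09). Olfr1222 and Olfr1239 neurons had 1 Calb2 UMI each, ratios of 216 (counting interval 38.7 to 8521) and 143 (25.6 to 5636). Gm31557 followed another order. It had 0 UMIs in Olfr1228 neurons, at least 11.8-fold lower than in Olfr1226 neurons, but 1.73, 1.23, 0.267 and 2.17 per 10000 in Olfr1222 and 3.61, 2.44, 0.942 and 1.31 in Olfr1239 neurons, which overlapped Olfr1226 neurons and were not called.

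S100a5 was called lower in Olfr1226 neurons against each of the 3 populations. It had 137, 119, 162 and 64.0 UMIs per 10000 in Olfr1228, 384, 402, 517 and 454 in Olfr1222 and 229, 135, 216 and 239 in Olfr1239 neurons, log2 changes of -1.09 (SE 0.16), -2.94 (SE 0.16) and -1.81 (SE 0.16). Only the Olfr1228 values overlapped those of Olfr1226, through mouse 4, where the order was the other way (76.6 in Olfr1226 and 64.0 in Olfr1228 neurons). Against Olfr1228 it was thus lower in 3 of 4 mice. Pcp4l1 gave -1.28, -2.98 and -1.75. Cartpt was called against Olfr1222 (-3.31, SE 0.31) and Olfr1239 (-2.81, SE 0.37). Olfr1228 neurons had 5.72, 0.321, 0.303 and 0 of it, so 1 mouse decided their mean and there was no call.

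Cidea divided the 4 populations into pairs. It had 3.43, 2.25, 3.64 and 3.34 UMIs per 10000 in Olfr1228 neurons, uncalled against Olfr1226, but 1 UMI each in Olfr1222 and Olfr1239 neurons, ratios of 91.2 (counting interval 16.4 to 3603) and 60.3 (10.8 to 2383). Ifi27 was higher than in Olfr1222 neurons by 4.16 (SE 0.50) and than in Olfr1239 neurons by 1.26 (SE 0.34), the latter call lost without mouse 1 (adjusted p = 0.48) or mouse 2 (adjusted p = 0.062). Against Olfr1228 neurons it was not called (-0.26, adjusted p = 0.82). The mesothelin-like gene Mslnl was higher than in Olfr1228 neurons by 2.00 (SE 0.32) and than in Olfr1222 neurons by 2.69 (SE 0.30). Its call against Olfr1239 neurons (1.01, SE 0.26) was lost without mouse 1 (adjusted p = 0.052), mouse 3 (adjusted p = 0.08) or mouse 4 (adjusted p = 0.071). Pdlim1, a scaffold protein of the actin cytoskeleton, was higher than in Olfr1239 neurons by 2.49 (SE 0.50) and than in Olfr1222 neurons by 3.27 (SE 0.51), with no call against Olfr1228 neurons (0.68, adjusted p = 0.53).

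Nrp2, the semaphorin receptor neuropilin-2, was called in opposite directions against these populations. It had 1.11, 1.98, 1.42 and 1.47 UMIs per 10000 in Olfr1226 neurons and 3.05, 3.85, 2.73 and 5.29 in Olfr1228 neurons, a log2 change of -1.37 (SE 0.36, adjusted p = 0.019). That call was lost without mouse 1 (adjusted p = 0.081), mouse 2 (adjusted p = 0.087) or mouse 4 (adjusted p = 0.35). Against Olfr1222 neurons, which had 6 Nrp2 UMIs in all, it was higher in 4 of 4 mice with no overlap (log2 change 2.20, SE 0.58, adjusted p = 0.0069), a call lost without mouse 1 (adjusted p = 0.069) or mouse 2 (adjusted p = 0.18). Against Olfr1239 neurons the log2 change was 1.23 with no call (adjusted p = 0.36). It was higher than in all other OSNs by 0.83 (SE 0.21, adjusted p = 0.0055), lost without mouse 2 (adjusted p = 0.43), and against the other Ventral OSNs it was not called (0.36, adjusted p = 0.59).

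Cyfip2, a partner of the fragile X protein, had a log2 change of -1.29 (SE 0.37) against Olfr1228, its call lost without mouse 2 (adjusted p = 0.089), mouse 3 (adjusted p = 0.21) or mouse 4 (adjusted p = 0.30). The non-coding 9530034E10Rik, with 3.41, 1.63, 3.30 and 3.28 in Olfr1239 neurons, had a log2 change of -1.85 (SE 0.42), lost without mouse 4 (adjusted p = 0.055).

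**Figure D3:**
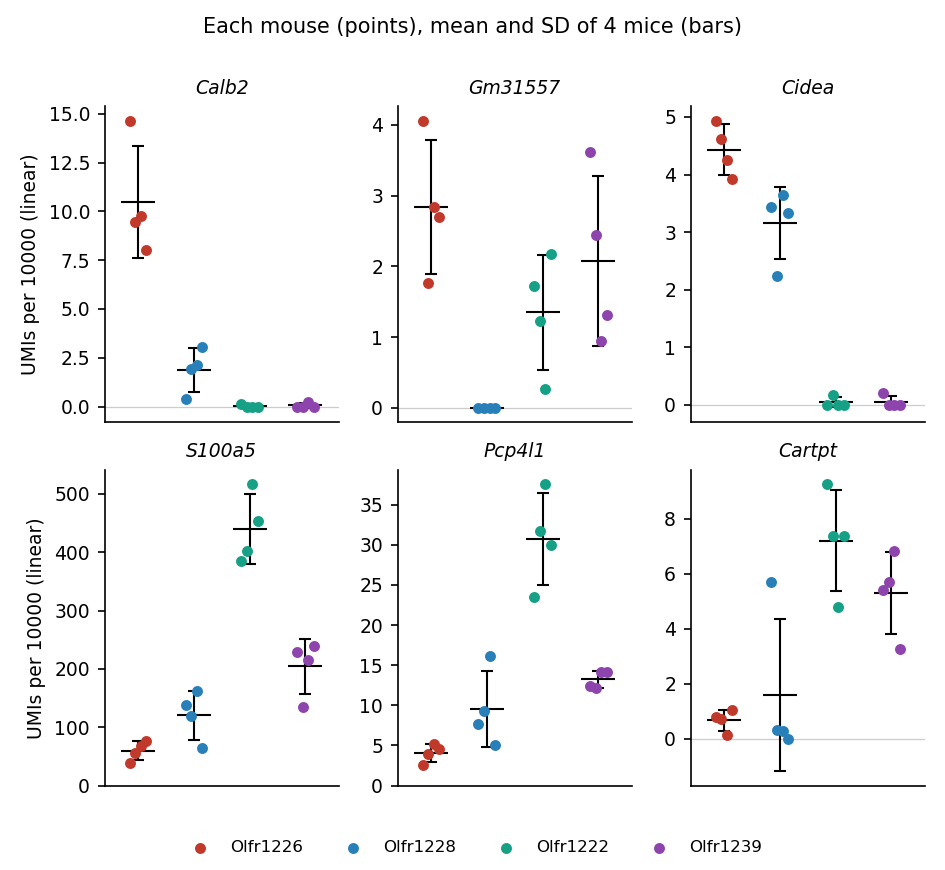
UMIs per 10000 of 6 genes (vertical axes, linear) in each mouse for Olfr1226 neurons and for the Olfr1228, Olfr1222 and Olfr1239 populations. Points are mice, and the bars are the mean and SD of 4 mice. Calb2 is high only in Olfr1226 neurons, Cidea in Olfr1226 and Olfr1228 neurons, Gm31557 in all but Olfr1228 neurons, and S100a5 runs from 59.6 in Olfr1226 to 440 in Olfr1222 neurons.

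The next-closest receptors by coding sequence had too few neurons for a test. Olfr1219 (15 neurons) and Olfr1217 (9 neurons) were most often in Dlg2+ V. Their pooled neurons held 0 Calb2 UMIs, and 808 and 744 S100a5 UMIs per 10000. Gm31557 was at 4.18 and 0.445 per 10000 in them, beside 2.81 in the pooled Olfr1226 neurons. The 2 neurons of Olfr1225, the closest receptor, held 0 Calb2 and 0 Gm31557 UMIs, and 356 S100a5 UMIs per 10000. As a description, receptors with over 85% coding identity to Olfr1226 thus spanned S100a5 levels from 118 (Olfr1228) to 808 per 10000.

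Placed among these 42 populations, Olfr1226 ranked within the top 7 for each of the 12 named increases. These genes, and the named decreases, were chosen for their change in Olfr1226 neurons, so that the choice largely fixes the end at which it ranks, and the ranks are a description. It was the first for Dnaic2 (1.79 UMIs per 10000, median of populations 0.0542), Dap (1.42, median 0.475) and Cygb (0.560), and the second for Apbb1ip and Stoml3. For Calb2 it was the fourth, after Olfr728 (30.8), Olfr1507 (26.1) and Olfr55 (11.2), where the median population had 0.180. Populations with fewer neurons were not ranked, and several of them held more Calb2 than Olfr1226. Among these were Olfr1178 (15.9), most often in Ventral, and Olfr1184 (35.2), most often in Calb2+ V. For Gm31557 it was also the fourth, after Olfr731 (6.86), Olfr1264 (3.46) and Olfr354 (3.09). Olfr1507 stood in the top 3 for 9 of the same 12 genes but had 0 Gm31557. From the other end, Olfr1226 was among the 10 lowest populations for 8 of the 10 named decreases that reached 1 UMI per 10000, with S100a5 at rank 33, Cartpt at 35, Tenm2 at 39 and Cdkn1a at 41 of 42. The other 2 were Pcp4l1, at rank 27, and Ptn, at rank 25, so that Pcp4l1 was low beside the other Ventral OSNs but nearer the middle of the populations. Across the 42 populations Calb2 and S100a5 ran opposite (Spearman's rho -0.707) and Pcp4l1 ran with S100a5 (0.882). These populations share the same 4 libraries, and the values are descriptions.

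**Figure D4:**
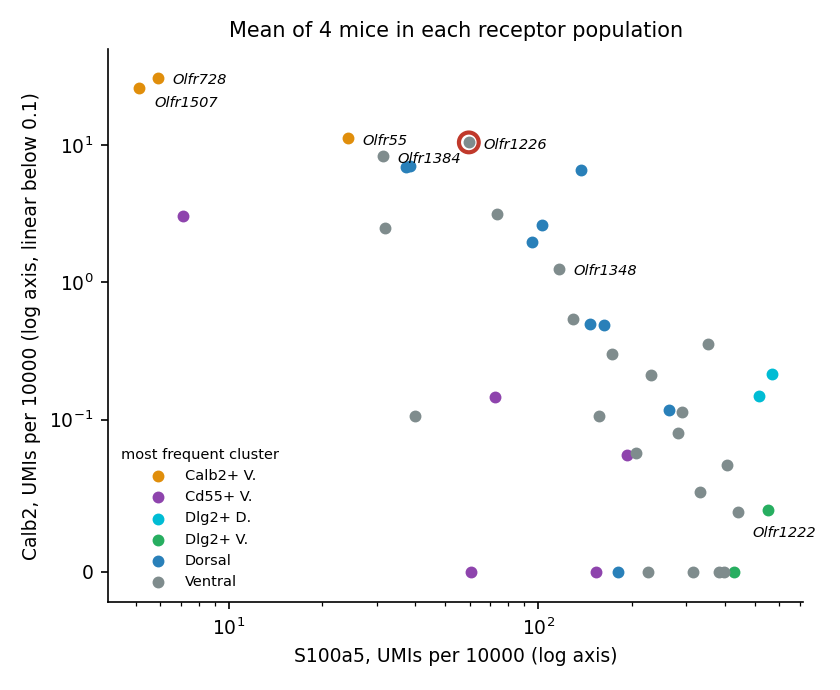
Calb2 (vertical axis, log scale, linear below 0.1) against S100a5 (horizontal axis, log scale) in UMIs per 10000, as the mean of 4 mice in each of the 42 populations with at least 5 neurons per mouse, coloured by most frequent cluster. Olfr1226, circled, has 10.5 Calb2 and 59.6 S100a5 and is the highest in Calb2 of the populations drawn as Ventral. Of those drawn, only Olfr728, Olfr1507 and Olfr55 of Calb2+ V. lie above it. Populations with fewer neurons are not drawn, among them Olfr1178, most often in Ventral, with 15.9 Calb2 and 12.4 S100a5.

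Profiles were compared over the 1908 non-receptor genes that averaged at least 1 UMI per 10000, as log2 of the level plus 1 minus each gene's mean over populations. The most similar of the other 122 populations with at least 3 neurons per mouse were Olfr1348 (Pearson's r 0.466), Olfr1507 (0.463), Olfr1206 (0.430) and Olfr1336 (0.414). Olfr1348, Olfr1206 and Olfr1336 were in Ventral and Olfr1507 in Calb2+ V.. In coding sequence Olfr1348 had 54.56% identity with Olfr1226, beside the median of 55.09%, and Olfr1507 59.38%. Of the neighbours, Olfr1228 came 16th (0.284), Olfr1239 56th (0.064) and Olfr1222 114th (-0.315). Olfr1206, 336817 bases from Olfr1226, was the nearest by position among the first 4.

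Single Olfr1226 neurons were spread over a wide range. Calb2 went from 0 to 40.4 UMIs per 10000 with a median of 8.09, and 22 of the 79 neurons (27.8%), 4, 6, 1 and 11 in mice 1 to 4, had no Calb2 UMI. S100a5 went from 0 to 452 with a median of 33.7, beside a median of 158 in the other Ventral OSNs. Neurons placed in Calb2+ V. with receptor genes had a median Calb2 of 20.02 (n = 32) and those left in Ventral 1.45 (n = 46). Since Calb2 was among the clustered genes, that gap is a description of the split. Within each mouse Calb2 ran against S100a5 (Spearman's rho -0.280, -0.253, -0.357 and -0.531 in mice 1 to 4) and with Stoml3 (0.460, 0.503, 0.393 and 0.367). Its relation with the UMI total had no steady sign (-0.409, 0.195, -0.429 and -0.018). With 7 to 28 sparse counts a mouse, these weak values are not findings.

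**Figure D5:**
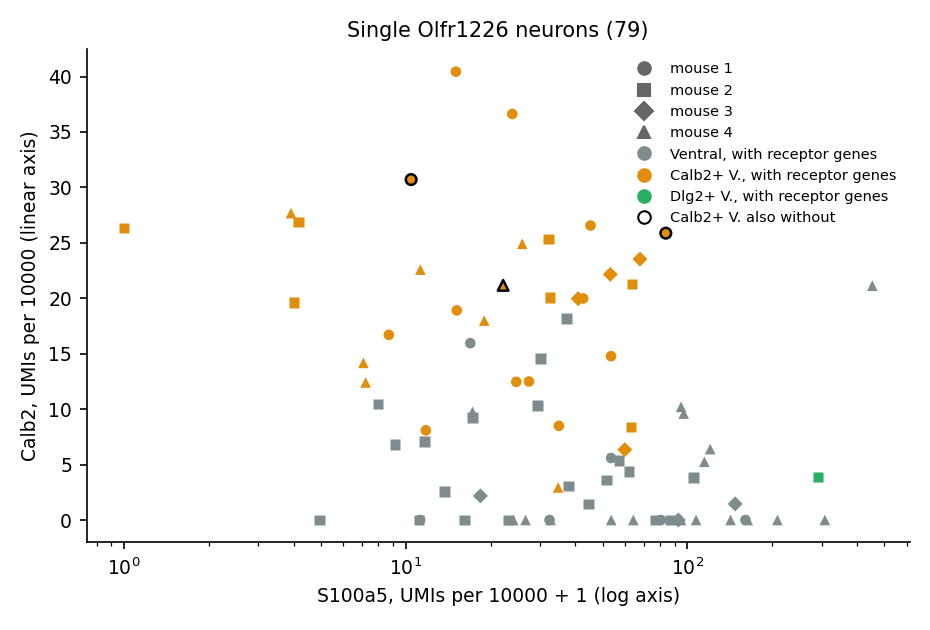
Calb2 (vertical axis, linear) against S100a5 plus 1 (horizontal axis, log scale) in UMIs per 10000 for each of the 79 Olfr1226 neurons. The shape marks the mouse and the colour the cluster made with receptor genes, and the 3 ringed neurons were in Calb2+ V. without receptor genes too. The neurons in Calb2+ V. hold 2.93 to 40.4 Calb2, and the 22 without Calb2 lie along the bottom.

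To compare shares of neurons at equal depth, each cell was thinned to 3000 UMIs, which left 69 Olfr1226 neurons and 3732 other Ventral OSNs and dropped 10 and 792. Calb2 was then detected in 69.6% against 7.90%, with 0.854% of the Mv2 cells as a level for RNA from outside the cell (unthinned 72.2% against 9.84% and 1.36%). Dnaic2 was detected in 46.4% against 7.93% (Mv2 1.38%), Cidea in 76.8% against 33.4% (Mv2 0.328%) and Gm31557 in 39.1% against 11.7% (Mv2 0.197%). Cartpt was detected in 20.3% against 49.3% (Mv2 1.77%). Kirrel3 was detected in 37.7% against 9.003% (Mv2 13.0%) and Pcp4l1 in 52.2% against 76.3% (Mv2 70.3%). Stoml3, detected in 100% of both groups of neurons, was in 7.94% of Mv2 cells. Whether Mv2 cells express Kirrel3 and Pcp4l1 themselves was not tested. Their shares are therefore given without a level for RNA from outside the cell. The median UMI count of the unthinned cells was 5696 in Olfr1226 neurons and 5081 in Mv2 cells.

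The neurons were also closer to each other than to the rest. On 15 principal components of 2000 variable non-receptor genes, computed within each mouse, the mean distance between Olfr1226 neurons was 0.714, 0.837, 0.664 and 0.818 of their mean distance to the other Ventral OSNs, a mean ratio of 0.758 ± 0.083 (SD, n = 4). To all other OSNs the ratios were 0.650, 0.770, 0.598 and 0.748. Every mouse was below 1 in both, and mouse 2, with the most neurons, had the highest ratio in each. No other population was measured in this way, and the study reports that neurons sharing a receptor are closer in general. The values are thus no trait particular to Olfr1226 neurons. These neurons were also deeper than the other Ventral OSNs, and the part of depth in the ratios was not tested.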

How the data were processed

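Male C57BL/6 mice (n = 4, 1 library each) were profiled with the 10x Chromium 3′ v3.1 chemistry. The authors counted reads with Cell Ranger 6.0.1 on GRCm38, using Ensembl gene models whose receptor genes had been given new 3′ ends, and deposited raw UMI counts per gene and barcode with no normalisation. Their cell table holds counts of UMIs and genes, the percent of mitochondrial UMIs per the deposited column, cell types, clusters and receptor identities. The authors had discarded whole clusters of blood, immune and suffering cells, and also barcodes with mitochondrial UMIs above 10% or fewer than 1000 genes. Clusters and identities were taken as deposited, and doublets were not searched for, beyond the exclusion by the study of neurons with more than 1 receptor above threshold.

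The Olfr1226 neurons, the gene lists and the marker genes were chosen with earlier results of these data known. The genes named were Calb2 and Gm31557, the 10 largest increases and 10 largest decreases called against the Ventral cluster with the same direction in 4 of 4 mice and 1 UMI per 10000, the 3 largest of each without that minimum, called members of the lists with up to 3 abundant uncalled ones, and the first 5 or 3 of each direction in the other comparisons. Gap43, Gng8, the further receptors and the other-cell markers Krt5, Trp63, Cftr, Trpm5, Ptprc and Tyrobp were named outside it. A few genes that the rule names are not reported here.

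UMIs were summed per mouse and group. Levels are UMIs per 10000 of all UMIs of the group, and receptor genes (1430) were left out of the tests. Tests used edgeR 4.0.16 in R 4.3.3 (TMM, filterByExpr, quasi-likelihood, Benjamini-Hochberg over all genes tested). Groups of the same mouse come from 1 animal and 1 library and are paired by it, and the fit held the mouse as a block. The neurons come from separate mice, so the SDs over mice are between animals. SEs were computed from the log2 change and its F statistic. The quasi-likelihood test shares variance across genes, so its SEs and p-values do not measure a gene's own spread over the 4 mice. Counting intervals are exact and cover counting error only. A 3′ method leaves genes sharing 3′ sequence uncertain, and fewer copies per cell and fewer cells with a copy cannot be told apart in a sum. The receptor protein table was not used here, so neighbours were chosen by position. The script was tested on simulated counts. Alternatives were DESeq2 1.42.0, RLE scaling, no scaling, no filter, no block, thinning to 3000 UMIs, neurons with 1 detected receptor (45 and 3097), other cluster choices, populations weighted equally and leaving out each mouse. Coding sequences came from GENCODE M21 on GRCm38, to which 55130 of 55511 features matched.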

Additional observations from a re-analysis of the deposited data

Results flagged for a closer look

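Among the levels of named genes over the 4 mice, 77 groups of values were examined for a mouse far from the other 3, and 3 were found, where chance alone gives about 1 in 20. All 3 were in the Olfr1226 neurons of mouse 3, which has 7 neurons. Its Atf5 was 23.3 UMIs per 10000 where the other mice had 29.7, 29.7 and 29.4. Its Nfix was 7.556, where they had 5.97, 6.16 and 6.22. Its Tubb3, a tubulin of neurons, was 3.778, where they had 5.41, 5.21 and 5.40.

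Olfr1226 transcripts were also found in barcodes that the deposited filters had removed. Of these 5950 barcodes, 20 had at least 1 Olfr1226 UMI and 8 had 10 or more, with a maximum of 142. No comparison used these barcodes.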

How the results depend on the processing

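The counts of called genes depend on the processing more than the leading genes do. Against the other Ventral OSNs (48 higher and 94 lower), DESeq2 called 36 higher and 18 lower, RLE scaling 64 and 61, no scaling factors (chosen after seeing the data) 67 and 62, no replicate block 38 and 57, and populations weighted equally, which can test 1724 genes with a UMI in each of 68 populations, 37 and 10. The excess of decreases thus turned around under all of these but the fit without the block. It was kept with neurons with exactly 1 receptor (26 and 66), thinning to 3000 UMIs (16 and 34), no filter (39 and 95), Olfr1226 neurons of the cluster only (50 and 101) and clusters made with receptor genes (49 and 97), and not with Calb2+ V. as reference (83 and 68). Against all other OSNs (75 and 181), DESeq2 called 71 higher and 36 lower, RLE scaling 111 and 99, no block 61 and 98, no scaling factors 123 higher and 95 lower, neurons with exactly 1 receptor 38 and 142, and thinning 25 higher and 79 lower. Against Olfr1228 (7 and 22), DESeq2 called 4 and 8, no filter 28 and 4, and no block 4 and 14. Against Olfr1222 (49 and 38), DESeq2 called 28 and 20 and no filter 91 and 22. Against Olfr1239 (18 and 13), DESeq2 called 9 and 8, no filter 46 and 6, and no block 8 lower. Leaving out 1 mouse gave 31 to 37 higher and 51 to 60 lower against Ventral, 44 to 62 and 101 to 130 against all other OSNs, 3 to 5 and 8 to 16 against Olfr1228, 32 to 48 and 18 to 43 against Olfr1222, and 8 to 17 and 4 to 8 against Olfr1239. Fewer neurons, UMIs or mice enter several of these, and for the others the cause was not tested.

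Among the results reported here, directions turned only with Calb2+ V. as reference, where Calb2 had a log2 change of -1.30, Pcp4l1 3.20, S100a5 2.39, Pdlim1 1.29, Pde1c 0.55, Epha5 2.02 and Dlg2 1.18. With Calb2+ V. as reference, 37 of the 44 named genes called against Ventral had a value. Of these, 20 remained called in the same direction, and 11, among them Kirrel3 and Scgn, kept their direction but lost their call. Of the 44 genes, 21 remained called under every other alternative that tested them, among them Calb2, Gm31557, Dnaic2, Cidea, Kirrel3, S100a5, Pcp4l1, Cartpt and Tenm2, and 31 remained called without each mouse. Weighting populations equally could test 15 of the 44 and ended 12 calls, those of Cdkn1a (adjusted p = 0.06), Ifit1 (0.26), Stmn1 (0.096), Ano2, Pde1c, Atf5, Dlg2, Bcl11b, Peg3, mt-Co1, mt-Cytb and mt-Nd4. DESeq2 ended 16 of 44, those of Olig1 (adjusted p = 0.39), Ifit1 (0.28), Tppp3 (0.14), Stmn1 (0.088), Rprm, Trib3, Pcdh10 and the 9 genes from Ano2 to mt-Nd4 just listed. Thinning ended 16 of 42, those of Stoml3 (log2 change 0.39, adjusted p = 0.18), Adam28 (0.18), Tmem159 (0.56), Tenm4 (0.18), Tppp3 (0.26), Pcdh8 (0.063), Rprm, Trib3, Pcdh10, Ano2, Pde1c, Atf5, Dlg2, Bcl11b, mt-Co1 and mt-Cytb. Neurons with exactly 1 receptor ended 10 of 42, those of Tmem159 (adjusted p = 0.29), Tenm4 (0.051), Rprm, Trib3, Ano2, Pde1c, Atf5, Bcl11b, Peg3 and mt-Cytb, and the fit without the block 11 of 44, those of Avp, Pcdh10 and the same 9 genes. RLE scaling and no scaling factors each ended 6, those of Rprm, Ano2, Pde1c, Atf5, Peg3 and mt-Cytb.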

Other observations

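A few late immature neurons already carried the receptor. Of 1006 cells of the type named iOSN2, 8 had an Olfr1226 UMI, and 5 of them, 1 in mouse 1, 3 in mouse 3 and 1 in mouse 4, had it as their top receptor with 93 to 278 UMIs. They were chosen after the data were seen and are given as values with no test. Summed, they had 16.6 Calb2 UMIs per 10000, and the 929 other iOSN2 cells with a receptor 21.7. S100a5 was at 56.2 against 162, with 233 of its 311 UMIs in 1 cell. Pcp4l1 was at 3.98 against 10.3, Kirrel3 at 1.08 against 0.581, Stoml3 at 95.8 against 55.8, Gm31557 at 1.27 against 0.310 and Tenm2 at 0.362 against 2.59, and these genes and S100a5 were on the same side as in mature Olfr1226 neurons. Calb2 was not, nor were Cidea, at 1.27 against 1.29, and Cartpt, at 25.1 against 14.8, with 109 of its 139 UMIs in 1 cell. The 5 cells were deeper, with a median of 12028 UMIs against 7409, and had less of the immature gene Gap43 (4.52 against 8.78) and more Omp (55.0 against 47.3), whose part in these differences was not tested.

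Outside the neurons, Olfr1226 UMIs were rare. They were found in 2 of 336 sustentacular cells (0.595%), 6 of 1768 Mv2 cells (0.339%) and 1 of 544 cells of the type named HBC2 (0.184%), with at most 2 UMIs, and in 0 of 202 globose basal cells, which allows a share of cells with a UMI of up to 1.49%.

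Avp, which encodes vasopressin, had 0 UMIs in Olfr1226 neurons. In the other Ventral OSNs it had 1.23, 0.0536, 0.251 and 0.548 UMIs per 10000 in mice 1 to 4, so the decrease of at least 8.62-fold rests on a reference that differs widely between mice, and the call was lost without the mouse block (adjusted p = 0.28). Rprm, also at 0 and at least 2.49-fold lower, was not called against all other OSNs (adjusted p = 0.11) and lost its call without mouse 1 (adjusted p = 0.24), mouse 2 (adjusted p = 0.24), mouse 3 (adjusted p = 0.17) or mouse 4 (adjusted p = 0.26).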
